A study of Mus musculus with 4 samples.

Results

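The 53 genes described here encode Polycomb proteins and other chromatin regulators, and the question was which of them carried H3K27me2 peaks in the maternal and paternal genomes of mouse zygotes. They were chosen by name as the subunits and cofactors of Polycomb repressive complexes 1 and 2 (PRC1 and PRC2), the enzymes that remove H3K27 methylation or H2A ubiquitin, the H3K9, H3K4 and H3K36 methylation enzymes, and the DNA methylation machinery with Smchd1. A peak belonged to a gene when the gene identifier in the deposited peak annotation was that of the gene. The 53 genes were examined among the 21900 protein-coding genes of the reference, and 84 of the 56036 listed peaks were assigned to them.

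H3K27me2 was profiled by ULI-NChIP-seq, a method that sequences nucleosomes precipitated by an antibody from MNase-digested native chromatin of very few cells. Pools of PN5 zygotes, the last pronuclear stage before the first cleavage, were prepared by fertilizing C57BL/6J eggs in vitro with sperm of the strain PWK/PhJ, so that reads over strain variants could be given to one parent. The eggs of Ezh2m+/p+ zygotes came from females with floxed Ezh2, and those of Ezh2m-/p+ zygotes came from floxed females with the transgene Gdf9-Cre, whose promoter drives Cre in oocytes and removes exon 4 of Ezh2 before fertilization. The paternal allele was wild type in both groups, and the floxed allele was present in both groups of mothers. Each genotype had 1 H3K27me2 library and 1 input library, which gave 4 peak lists, a maternal and a paternal list for each genotype. Because a genotype was represented by 1 library, no difference between genotypes could be set against replicate spread, and no test was run. The genotype of a list was taken from its name, which uses WT and EZH2. The reporting summary of the study gives the same peak numbers under EZH2m+p+ and EZH2m-p+. Every direction given here rests on this labelling. Removal of exon 4 cannot be read from peak lists, which carry no reads.

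PRC2 methylates H3K27 through its catalytic subunits EZH1 and EZH2, which act with EED and SUZ12, and it leaves mono-, di- or trimethylated lysine. PRC1 ubiquitinates H2A through RING1 and RNF2, and its CBX subunits bind trimethylated H3K27. In zygotes the maternal genome carries histone marks from the oocyte, whereas the paternal genome is newly packed into histones after the protamines of the sperm are removed.

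The fold given for each peak is the ratio of H3K27me2 to input reads that the peak caller of the authors computed. Every listed fold was over 5, and the folds came in repeated steps. In the Ezh2m+/p+ paternal list 3350 of 17863 peaks had a fold of 36.1 and another 2541 had a fold of 48.1. The lists hold no read counts, so the folds carry no error, and folds of different lists are given side by side without being compared as levels. Distances are those of the deposited annotation, which measured to the nearest transcript start of the gene, with upstream and downstream in the direction of transcription. The promoter category of the annotation covers up to 3 kb on either side of such a start. Many of these starts belong to short internal transcripts. All coordinates are mm10.

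Peaks were assigned to 28 of the 53 genes in at least 1 list, where 44.8% of all protein-coding genes had one, and 25 genes had none in any list. In the maternal genome, 12 genes (22.6%, 95% Wilson interval 13.5 to 35.5%) had a peak in Ezh2m+/p+ zygotes, where 14.4% of all protein-coding genes had one. In the Ezh2m-/p+ maternal list the number was 15 (28.3%, 18.0 to 41.6%), against 20.8% of all genes. In the paternal genome it was 9 genes (17.0%, 9.2 to 29.2%) against 20% in Ezh2m+/p+ zygotes, and 10 genes (18.9%, 10.6 to 31.4%) against 23.5% in Ezh2m-/p+ zygotes. The share over all genes lay inside the interval of the regulators in all 4 lists. The intervals cover counting error only. Among genes of at least 20 kb, which leaves 39 of the regulators, the shares with a peak were 28.2%, 38.5%, 15.4% and 23.1% in the same order, against 23.1%, 31.9%, 26.6% and 31.1% of all genes of that length.

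**Figure D1:**
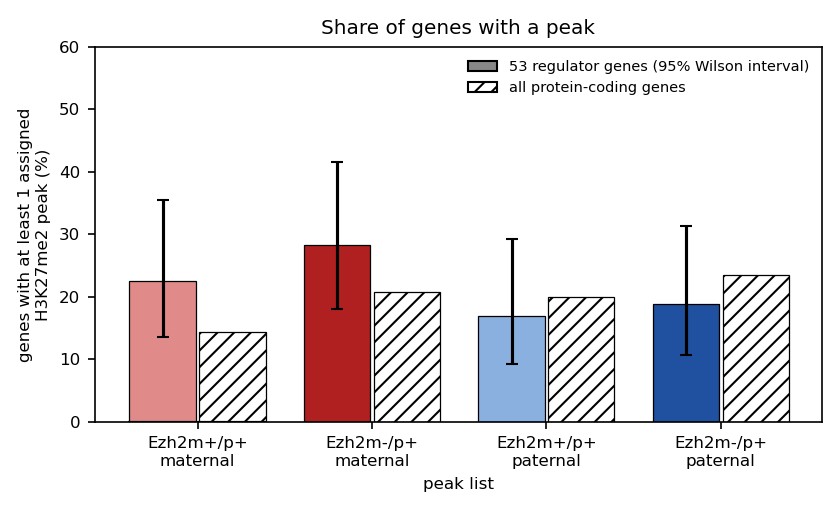
Share of genes with at least 1 assigned H3K27me2 peak (vertical axis, %) in each of the 4 peak lists (horizontal axis). Filled bars are the 53 regulator genes with 95% Wilson intervals for counting error, hatched bars are all 21900 protein-coding genes, and the filled bars stand above the hatched ones in the maternal lists (22.6% and 28.3%) and below them in the paternal lists (17.0% and 18.9%).

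Of the 28 genes, 15 had maternal peaks only, 7 had paternal peaks only and 6 had peaks in both parental genomes. Of all protein-coding genes, 18.6%, 17.9% and 8.26% fell in these classes, against 28.3%, 13.2% and 11.3% of the 53. Peaks were found in 1 list for 14 genes, in 2 lists for 11, in 3 lists for Cbx6 and Kdm2b, and in all 4 lists for Pcgf5. The shares of all genes by number of lists are not given here, so presence in 3 or 4 lists is not read as unusual. In the DNA methylation group Dnmt3a, Dnmt3b and Tet2 had maternal peaks in both genotypes, and only Smchd1 had assigned paternal ones. No paternal peak of any gene lay in the 1 Mb around Dnmt1, Dnmt3a, Dnmt3l, Tet1, Tet2 or Uhrf1 in either genotype. Part of Tet3 lay under paternal peaks given to another gene. Kdm2b and Jarid2 together held 8 of the 15 Ezh2m+/p+ paternal peaks and 13 of the 22 Ezh2m-/p+ paternal peaks.

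**Figure D2:**
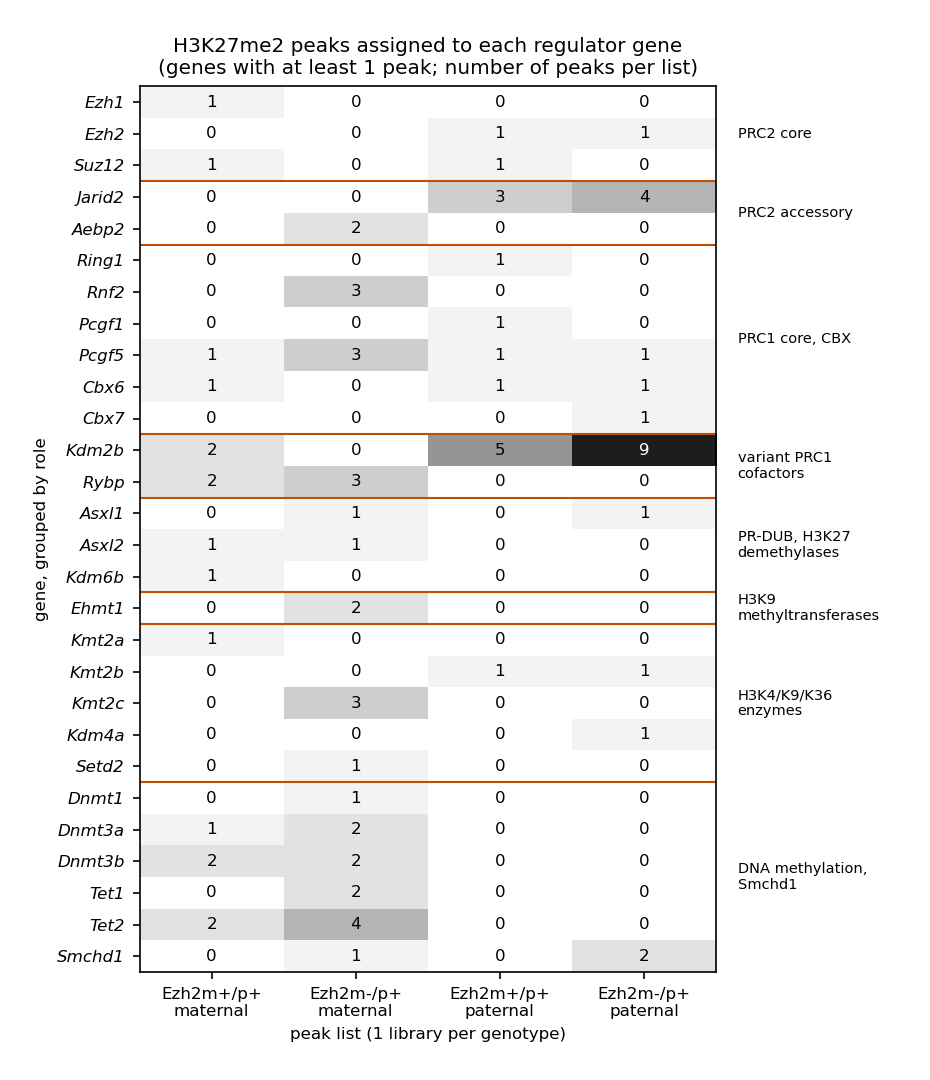
Number of H3K27me2 peaks assigned to each of the 28 regulator genes with at least 1 peak (rows, grouped by role) in each of the 4 lists (columns, 1 library per genotype), with darker shading for more peaks. The largest count is that of Kdm2b, with 5 and 9 paternal peaks, and all peaks of the DNA methylation genes other than Smchd1 are in the maternal columns.

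Among the core subunits of PRC2, peaks were assigned to Ezh1, Ezh2 and Suz12, and none to Eed, the subunit that binds methylated H3K27, or to the histone-binding subunits Rbbp4 and Rbbp7. Ezh2, which encodes the catalytic subunit deleted in the oocytes of Ezh2m-/p+ zygotes, lies on chromosome 6 from 47530274 to 47595270. It had no maternal peak in either genotype. Its paternal peaks were distal intergenic. The Ezh2m+/p+ paternal peak, chr6:47647201-47648199, was 999 bp long with a fold of 72.2 and lay 51.9 kb upstream of a start. In Ezh2m-/p+ zygotes the paternal peak, chr6:47647401-47650199, was 2799 bp long with a fold of 22.7 and lay 52.1 kb upstream. The paternal peaks of the 2 genotypes overlapped by 799 bp. The middle of this overlap is shown because it is the position near Ezh2 that was listed in both genotypes. It is on the plus strand of mm10 at chr6:47647651-47647950, with the CG dinucleotides in capitals here and in all sequences below, and 64.7% of it is soft-masked as repeat sequence in the reference.
Ezh2 paternal overlap: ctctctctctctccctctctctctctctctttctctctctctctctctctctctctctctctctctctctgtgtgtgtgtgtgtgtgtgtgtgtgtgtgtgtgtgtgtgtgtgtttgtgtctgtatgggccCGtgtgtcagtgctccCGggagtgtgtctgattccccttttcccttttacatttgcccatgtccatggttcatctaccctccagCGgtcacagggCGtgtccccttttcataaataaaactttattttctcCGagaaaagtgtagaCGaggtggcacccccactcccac
The sequence opens with simple CT and GT repeats, and its 6 CG dinucleotides lie after them.

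Ezh1 encodes the other catalytic subunit of PRC2. It had 1 peak, in the maternal list of Ezh2m+/p+ zygotes, and none in the Ezh2m-/p+ lists. This peak, chr11:101196001-101198399, was 2399 bp long and was placed in a promoter category, 1.58 kb upstream of the start of an internal processed transcript within the 35.3 kb gene. Its fold of 5.03 is the most common value of that list, shared by 401 peaks at the low end of the listed range. The central 300 bases, shown because this was the one peak of the gene, are on the plus strand at chr11:101197051-101197350 and 86.3% soft-masked.
Ezh1 maternal peak, Ezh2m+/p+: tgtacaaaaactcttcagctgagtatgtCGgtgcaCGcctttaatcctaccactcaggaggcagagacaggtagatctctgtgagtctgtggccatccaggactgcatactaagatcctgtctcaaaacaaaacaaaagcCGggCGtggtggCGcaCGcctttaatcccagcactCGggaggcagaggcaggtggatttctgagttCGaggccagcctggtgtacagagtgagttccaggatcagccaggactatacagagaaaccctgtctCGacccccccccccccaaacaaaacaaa
These 300 bases hold 9 CG dinucleotides.

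Suz12, the subunit that holds the PRC2 core together, had 1 peak in each parental genome of Ezh2m+/p+ zygotes and none in Ezh2m-/p+ zygotes. Both peaks were distal intergenic and upstream of the gene, which starts at 79993106 on chromosome 11. The maternal peak, chr11:79988001-79989799 (1799 bp, fold 36.2), was 3.31 kb upstream, and the paternal peak, chr11:79980801-79981999 (1199 bp, fold 36.1), was 11.1 kb upstream. They did not overlap. The 300 bases in the middle of the maternal peak, chr11:79988751-79989050 on the plus strand, are shown because this was the peak of Suz12 closest to its start.
Suz12 maternal peak, Ezh2m+/p+: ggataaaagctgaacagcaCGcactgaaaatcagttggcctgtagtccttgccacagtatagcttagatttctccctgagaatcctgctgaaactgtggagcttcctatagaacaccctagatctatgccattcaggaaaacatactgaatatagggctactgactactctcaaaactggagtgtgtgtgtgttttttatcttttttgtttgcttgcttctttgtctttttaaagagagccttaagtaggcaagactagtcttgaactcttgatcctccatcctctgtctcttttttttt
They hold 1 CG dinucleotide and 40.3% G and C. Over the 6 core genes the peak numbers were 2 and 0 in the maternal lists and 2 and 1 in the paternal lists of Ezh2m+/p+ and Ezh2m-/p+ zygotes, each in as many genes. Of all genes, 14.4%, 20.8%, 20% and 23.5% had a peak in these lists, and with 6 genes no difference is read from the counts.

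Of the 5 PRC2 accessory genes, Jarid2 and Aebp2 had peaks, and the Polycomb-like genes Mtf2, Phf1 and Phf19 had none. JARID2 helps to bring PRC2 to its targets. Its gene, 191 kb long on chromosome 13, had no maternal peak, 3 paternal peaks in Ezh2m+/p+ zygotes and 4 in Ezh2m-/p+ zygotes, and all 7 were distal intergenic, between 93.3 and 143 kb upstream of a start. In Ezh2m+/p+ zygotes the peaks were chr13:44584201-44586999 (2799 bp, fold 13.5), chr13:44600201-44604199 (3999 bp, fold 7.52) and chr13:44635001-44636199 (1199 bp, fold 60.2). All 3 overlapped paternal peaks of Ezh2m-/p+ zygotes. Those of the latter that were assigned to Jarid2 were chr13:44586001-44589199 (3199 bp, fold 11.2), chr13:44601401-44606399 (4999 bp, fold 36.4) and chr13:44634601-44636199 (1599 bp, fold 94.6). The peak chr13:44595401-44599399 (3999 bp, fold 8.87) was listed in Ezh2m-/p+ zygotes alone. The first of the 3 also overlapped an Ezh2m-/p+ peak, chr13:44580001-44585199 (fold 17.2), that was assigned to another gene. The overlap nearest to the gene was 1199 bp long, and its middle, chr13:44635451-44635750 on the plus strand, is shown because no other Jarid2 peak of either list lay closer to the gene.
Jarid2 paternal overlap: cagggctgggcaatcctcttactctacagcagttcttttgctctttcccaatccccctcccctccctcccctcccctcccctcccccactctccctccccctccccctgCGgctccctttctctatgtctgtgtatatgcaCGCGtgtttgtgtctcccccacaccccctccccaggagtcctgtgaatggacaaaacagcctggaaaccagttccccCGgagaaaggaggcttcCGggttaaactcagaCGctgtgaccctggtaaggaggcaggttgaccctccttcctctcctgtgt
It holds 59.3% G and C and 6 CG dinucleotides. The 1 Mb around Jarid2 held 52 and 63 paternal peaks and no maternal peak in Ezh2m+/p+ and Ezh2m-/p+ zygotes.

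Aebp2, a cofactor found in the same form of PRC2 as JARID2, had 2 peaks, both in the Ezh2m-/p+ maternal list. The first lay in the last of 8 introns (chr6:140665401-140667399, fold 27.5) and the other in the 3' UTR (chr6:140671801-140677999, 6199 bp, fold 60.4). The latter fold was the largest of the 31 regulator peaks in that list, and 99.3% of the peaks of the list had a fold at or below it. Together the peaks covered 14.6% of the gene.

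Kdm2b was assigned more peaks than any other of the 53 genes, 16 in 3 lists. The paternal peaks farthest upstream were assigned through a transcript that GENCODE gives to another gene, Gm44574. KDM2B binds unmethylated CG-rich DNA through its CxxC domain and brings a variant form of PRC1 to it. The gene lies on the minus strand of chromosome 5 from 122870664 to 122989270. It had 2 maternal peaks in Ezh2m+/p+ zygotes and none in Ezh2m-/p+ zygotes, whereas the paternal lists had 5 and 9. The maternal peaks were chr5:122903801-122906199 in intron 12 of 22 (2399 bp, fold 37.5, 3.45 kb upstream of an internal start) and chr5:122940401-122942599 in a 3' UTR (2199 bp, fold 11.4, 5.39 kb downstream of an internal start). Neither overlapped a paternal peak.

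The 5 Ezh2m+/p+ paternal peaks formed a group in the middle of the gene and a group upstream of it. In the gene were chr5:122914001-122916199 (2199 bp, fold 7.52) and chr5:122919401-122920799 (1399 bp, fold 36.1), both in promoter categories of internal transcripts at 1.52 kb and 749 bp from their starts, and chr5:122930801-122931999 in intron 11 of 22 (1199 bp, fold 48.1). Upstream were chr5:122992401-122999599 (7199 bp, fold 8.53), 2.58 kb from a start in a promoter category, and chr5:123003201-123004999 (1799 bp, fold 48.1), in an intron of a transcript that the lists give to Kdm2b and GENCODE to Gm44574. The 7199 bp peak was the longest of the 15 regulator peaks in this list. Of the 5 peaks, 4 overlapped Ezh2m-/p+ paternal peaks, and the exception was chr5:122914001-122916199.

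In Ezh2m-/p+ zygotes both groups held more paternal peaks. Overlapping the Ezh2m+/p+ ones within the gene were chr5:122919401-122921199 (1799 bp, fold 13.8, 349 bp from an internal start, promoter category) and chr5:122930601-122931999 in intron 11 (1399 bp, fold 126). The 7199 bp peak was matched by the pair chr5:122992001-122995999 (3999 bp, fold 10.8, promoter category, 2.18 kb upstream) and chr5:122997201-122999599 (2399 bp, fold 173, in exon 3 of 3 of an overlapping transcript, 7.38 kb upstream). The last overlap was with chr5:123003601-123004799 (1199 bp, fold 11.8). Listed in Ezh2m-/p+ zygotes alone were chr5:122925601-122926599 (999 bp, fold 78.8) in intron 11, chr5:122938401-122939399 (999 bp, fold 78.8) in intron 9, chr5:122986401-122987599 (1199 bp, fold 7.88) in a promoter category 934 bp downstream of a protein-coding start, and chr5:123001001-123002799 (1799 bp, fold 11.8) upstream. The peaks chr5:123001001-123002799 and chr5:123003601-123004799 were measured to the transcript that GENCODE gives to Gm44574, and lay 11.7 and 14.3 kb outside Kdm2b. The fold of 173 was the largest of the regulator peaks in this list, and 97.7% of the listed peaks were at or below it. The positions of 5 pairs of peaks were thus shared by the paternal lists.

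The middle of an upstream overlap, chr5:122994051-122994350 on the plus strand, is shown because it was listed in the paternal genome of both genotypes.
Kdm2b paternal overlap, upstream: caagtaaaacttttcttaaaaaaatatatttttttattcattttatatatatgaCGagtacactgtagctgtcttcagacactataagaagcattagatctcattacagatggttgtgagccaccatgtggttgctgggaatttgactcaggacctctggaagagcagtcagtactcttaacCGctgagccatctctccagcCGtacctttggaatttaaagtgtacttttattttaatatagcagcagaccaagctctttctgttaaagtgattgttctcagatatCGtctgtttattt
It holds 4 CG dinucleotides and 36% G and C, and 79.7% of its bases are soft-masked.

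**Figure D3:**
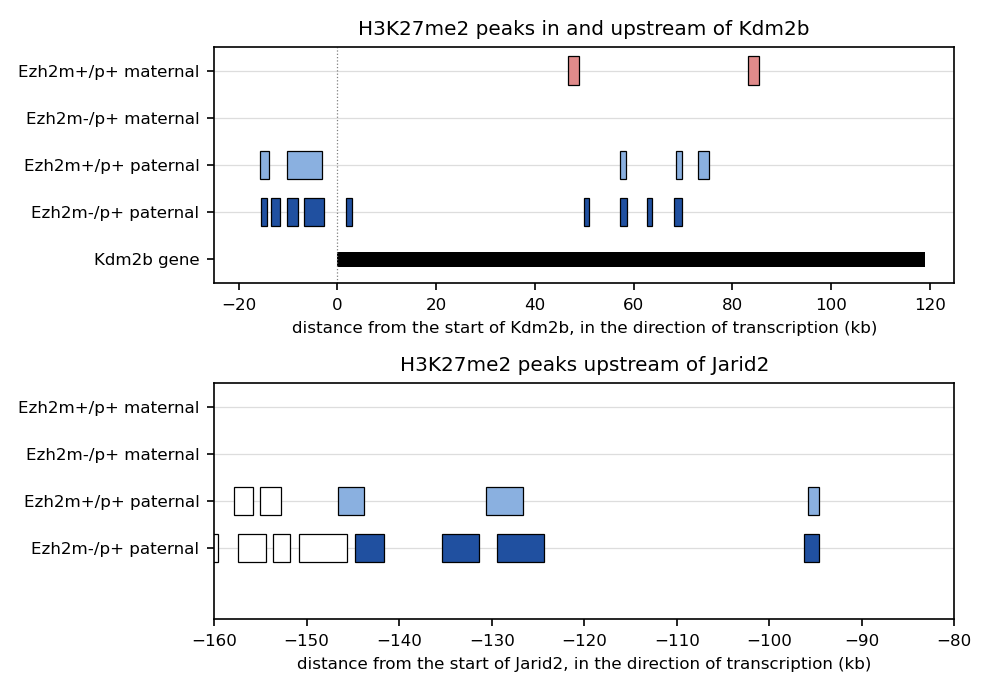
H3K27me2 peaks (boxes, to scale) of the 4 lists around Kdm2b and upstream of Jarid2, by distance from the gene start in kb in the direction of transcription. Filled boxes are peaks assigned to the gene, open boxes are peaks assigned to other genes and the black bar is the 119 kb Kdm2b gene. The Ezh2m+/p+ and Ezh2m-/p+ paternal rows share positions, and the 2 maternal boxes of Kdm2b lie between 46.7 and 85.5 kb from its start.

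RYBP and YAF2 are alternative subunits of variant PRC1. Rybp had 2 Ezh2m+/p+ and 3 Ezh2m-/p+ maternal peaks, no paternal peak, and no position in common between the genotypes, with 38.8 kb between the closest pair. One of them lay in the gene, in intron 2 of 4 (chr6:100236601-100241399, 4799 bp, fold 6.53). The other 4 were distal intergenic, between 56.9 and 179 kb from a start, with folds from 5.86 to 50.5. Yaf2 had no peak.

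Of the 12 PRC1 core and CBX genes, 6 had peaks in at least 1 list, where 44.8% of all protein-coding genes had one. Pcgf5, which encodes the subunit that defines one variant form of PRC1, was the gene with peaks in all 4 lists. The Ezh2m+/p+ maternal peak, chr19:36391801-36394999 (3199 bp, fold 7.54), lay over a protein-coding start within the 113 kb gene. The 3 Ezh2m-/p+ maternal peaks were at other positions, at least 21.2 kb away. They were chr19:36355201-36357999 in an exon (2799 bp, fold 29.1, 21.1 kb upstream of an internal start), chr19:36367801-36370599 in an intron (2799 bp, fold 7.46, 8.47 kb upstream) and chr19:36432601-36434199 in a promoter category (1599 bp, fold 20.7, 2.97 kb upstream). In the paternal genome the picture differed, with 1 peak per genotype just past the end of the gene. The Ezh2m+/p+ paternal peak, chr19:36462801-36465199 (2399 bp, fold 144, 23.1 kb downstream of an internal start), lay within the Ezh2m-/p+ paternal peak chr19:36461001-36466599 (5599 bp, fold 9.85, 21.3 kb downstream). A fold of 144 was the largest of the regulator peaks in the Ezh2m+/p+ paternal list, where 97.5% of the peaks were at or below it. These were the only paternal peaks of the 1 Mb around the gene in either list.

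Cbx6 and Cbx7 encode subunits with a chromodomain. Cbx6 had a maternal peak in Ezh2m+/p+ zygotes, chr15:79843801-79846199 (2399 bp, fold 5.03), in an exon of another transcript 9.11 kb upstream of a start. Its paternal peaks were distal intergenic and overlapped by 1199 bp. They were chr15:79860601-79861799 in Ezh2m+/p+ zygotes (1199 bp, fold 96.3, 25.9 kb upstream) and chr15:79860201-79864399 in Ezh2m-/p+ zygotes (4199 bp, fold 18.7, 25.5 kb upstream). Cbx7 had 1 peak, in the first of 5 introns in the Ezh2m-/p+ paternal list (chr15:79948401-79950199, 1799 bp, fold 5.91). Cbx2 and Cbx8, which lie next to each other on chromosome 11, had none.

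Rnf2, the ubiquitin ligase of PRC1, had 3 peaks, all in the Ezh2m-/p+ maternal list. The peak chr1:151489401-151498999 was 9599 bp long, the longest of the 84, with a fold of 7.22 and a promoter category, 1.79 kb downstream of a protein-coding start. The peak chr1:151466201-151469199 (2999 bp, fold 42.1) was in a promoter category 2.83 kb downstream of a start and 199 bp beyond the end of the gene. The third was 24.0 kb upstream (fold 7.46). Peaks covered 30.4% of Rnf2, and the 1 Mb around it held 37 Ezh2m-/p+ maternal peaks against 7 Ezh2m+/p+ ones. Pcgf1 had 1 Ezh2m+/p+ paternal peak, chr6:83080201-83081399 (1199 bp, fold 36.1), 181 bp from the start of a retained-intron transcript.

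Ring1, the paralogue of Rnf2, had 1 assigned peak, Ezh2m+/p+ paternal and distal intergenic (chr17:34011401-34013999, fold 6.77, 9.93 kb downstream of a start). The whole of this 3.89 kb gene was also covered by a peak in both paternal lists that the annotation gave to Mir219c, a microRNA gene next to it. These peaks were chr17:34019401-34030999 in Ezh2m+/p+ zygotes (11599 bp, fold 8.17) and chr17:34019001-34030799 in Ezh2m-/p+ zygotes (11799 bp, fold 8.87). They overlapped each other and are not part of the 84. Bmi1, Pcgf2, Pcgf3, Pcgf6, Cbx2 and Cbx8 had no assigned peak. In this group the peak numbers were 2 and 6 in the maternal lists and 4 and 3 in the paternal lists of Ezh2m+/p+ and Ezh2m-/p+ zygotes. They belonged to 2 and 2 genes in the maternal and 4 and 3 genes in the paternal lists. Of all genes, 14.4%, 20.8%, 20% and 23.5% had a peak in these lists, and no difference is read from so few genes.

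BAP1 with ASXL1 or ASXL2 removes ubiquitin from H2A, and KDM6A and KDM6B remove methyl groups from H3K27. Asxl1 had 1 peak in each parental genome of Ezh2m-/p+ zygotes. The maternal one, chr2:153390601-153392199 (1599 bp, fold 22.9), was in a promoter category 661 bp upstream of an internal start, and the paternal one was in a 3' UTR annotation within the neighbouring gene Nol4l, 5.79 kb beyond Asxl1 (fold 63.0). Asxl2 had 1 maternal peak in each genotype, both distal intergenic beyond the end of the gene and 2.4 kb apart, with folds of 5.03 and 28.3. Kdm6b had 1 Ezh2m+/p+ maternal peak 21.9 kb upstream (fold 5.53), which lay in exon 63 of 85 of Dnah2. Bap1 and Kdm6a had none, and Kdm6a on chromosome X had no peak of any list in the 1 Mb around it.

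Of the 5 H3K9 methyltransferase genes, Ehmt1 had peaks, and Ehmt2, Setdb1, Suv39h1 and Suv39h2 had none. EHMT1 and EHMT2 form a complex that sets mono- and dimethylation of H3K9, and the study examined EHMT1 in zygotes as well. Both Ehmt1 peaks were in the Ezh2m-/p+ maternal list and inside the 129 kb gene. The peak chr2:24836401-24837999 (1599 bp, fold 19.9) was in a promoter category 1.59 kb downstream of the start of an internal transcript, and chr2:24895401-24897399 (1999 bp, fold 28.3) lay in intron 1 of 26, 3.7 kb upstream of an internal start. The middle of the first, chr2:24837051-24837350 on the plus strand, is shown because it was the peak of Ehmt1 in a promoter category.
Ehmt1 maternal peak, Ezh2m-/p+: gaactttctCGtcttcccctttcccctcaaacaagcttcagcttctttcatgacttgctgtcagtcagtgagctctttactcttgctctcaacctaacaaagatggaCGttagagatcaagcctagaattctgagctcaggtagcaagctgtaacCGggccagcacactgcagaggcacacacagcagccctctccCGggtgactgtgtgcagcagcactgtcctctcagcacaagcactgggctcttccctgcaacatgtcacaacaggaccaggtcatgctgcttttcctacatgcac
It holds 4 CG dinucleotides and is 7.33% soft-masked. The peaks covered 2.79% of Ehmt1, and no paternal peak of either genotype lay in the 1 Mb around it.

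The next group holds the H3K4 and H3K36 methyltransferases and the demethylases of H3K4, H3K9 and H3K36. Of its 8 genes, 5 had peaks in at least 1 list, where 44.8% of all protein-coding genes had one. Kmt2b, an H3K4 methyltransferase gene, had 1 paternal peak in each genotype. They were chr7:30585001-30586599 over a protein-coding start in Ezh2m+/p+ zygotes (1599 bp, fold 48.1) and chr7:30579601-30581399 near an internal start in Ezh2m-/p+ zygotes (1799 bp, fold 11.8, 607 bp upstream), 3.6 kb apart. Kmt2a had 1 Ezh2m+/p+ maternal peak, chr9:44815401-44818799 (3399 bp, fold 5.19), in a promoter category 1.32 kb from an internal start. Kmt2c had 3 Ezh2m-/p+ maternal peaks in its 227 kb, 2 in exons and 1 in intron 1 of 58, between 35.9 and 46.9 kb from a start and with folds from 6.4 to 42.1. Setd2, the H3K36 trimethylase gene, had 1 Ezh2m-/p+ maternal peak 25.2 kb upstream (fold 19.9), which lay in an exon of Kif9. Kdm4a, which encodes a demethylase of H3K9 and H3K36, had 1 Ezh2m-/p+ paternal peak in intron 3 of 21 (fold 78.8). Kmt2d, Kdm5b and Nsd1 had none.

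The DNA methylation genes and Smchd1 held 5 Ezh2m+/p+ and 12 Ezh2m-/p+ maternal peaks, in 3 and 6 of the 9 genes, and 0 and 2 paternal peaks, in 0 and 1 of them. With 9 genes these numbers are read only beside those of the lists. Of all genes, 14.4%, 20.8%, 20% and 23.5% had a peak in the same lists, and the list-wide ratio for maternal peaks was 1.67. The 1 Mb around Dnmt1, Dnmt3a, Dnmt3l, Tet1, Tet2 and Uhrf1 held no paternal peak of any gene in either genotype. Dnmt1, the maintenance methyltransferase gene, had 1 peak, chr9:20959401-20962199, in the Ezh2m-/p+ maternal list (2799 bp, fold 42.8, over a protein-coding start). The de novo methyltransferase genes Dnmt3a and Dnmt3b had maternal peaks in both genotypes and none in common. Dnmt3a had an Ezh2m+/p+ peak in an intron (fold 42.9, 14.6 kb from a start). Its Ezh2m-/p+ peaks were chr12:3849401-3851999 over an internal start (2599 bp, fold 6.21) and one in a 3' UTR (fold 58.9), and the closest pair was 25.2 kb apart. For Dnmt3b the Ezh2m+/p+ peaks were chr2:153663801-153665799 (1999 bp, fold 40.2), which ended 3 bp from an internal start, and one in intron 1 of 22 (fold 6.37). In Ezh2m-/p+ zygotes they were 5.05 kb upstream of the gene (fold 26.8) and in intron 20 of 22 (fold 9.75).

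TET enzymes oxidize 5-methylcytosine, and TET3 is the one known for this in the paternal pronucleus. Tet2 had 2 Ezh2m+/p+ and 4 Ezh2m-/p+ maternal peaks. The peak in intron 1 of 10 (chr3:133531001-133534799, 3799 bp, fold 55.0, 9.49 kb from a start) had the largest fold of the regulator peaks in the Ezh2m+/p+ maternal list, with 96.0% of the listed peaks at or below it. The other 5 Tet2 peaks were distal intergenic, between 27.4 and 234 kb from a start. Tet1 had 2 Ezh2m-/p+ maternal peaks (folds 19.9 and 20.7), 4.3 kb downstream and 3.7 kb upstream of internal starts. Tet3 had no assigned peak, but 3 peaks given to other genes lay within it. They were an Ezh2m+/p+ maternal peak in intron 3 of Tet3 that was given to Mir6374 (chr6:83389001-83394199, 5199 bp, fold 67.0), and 1 paternal peak in each genotype given to B230319C09Rik (chr6:83447401-83448599, fold 48.1, and chr6:83447401-83448799, fold 10.8). Dnmt3l and Uhrf1, whose proteins assist de novo and maintenance methylation, had none.

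Smchd1 encodes an SMC-like protein of X inactivation and imprinting, and maternal Smchd1 protein is present in the zygote. It had 3 peaks, all in Ezh2m-/p+ zygotes. The maternal peak, chr17:71474201-71475599 (1399 bp, fold 20.7), lay over the protein-coding start. The paternal peaks were chr17:71362801-71364599 (1799 bp, fold 7.88), in a promoter category 842 bp upstream of an internal start, and chr17:71349201-71350799 in a 3' UTR (fold 15.8). With 8.08 CG dinucleotides per 100 bp the maternal peak stood far above the median of its list, 0.929.

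Promoter categories held 22 of the 84 peaks (26.2%, against 16.9% of all listed peaks), of which 9 were next to the start of a protein-coding transcript and the rest next to starts of other transcript types. In the maternal lists, 4 genes (7.55%, 95% Wilson interval 2.97 to 17.9%) and 7 genes (13.2%, 6.55 to 24.8%) had such a peak in Ezh2m+/p+ and Ezh2m-/p+ zygotes, against 3.60% and 5.89% of all protein-coding genes. In each paternal list it was 3 genes (5.66%, 1.94 to 15.4%), against 8.66% and 11.1% of all genes. The share over all genes lay inside the interval except in the Ezh2m-/p+ maternal list, where it was below the lower limit of 6.55%. Within 1000 bp of a start the maternal numbers were 2 and 4 genes, against 2.21% and 3.47% of all genes. The paternal numbers were 3 and 3, against 6.05% and 8.13%. The intervals given above for 4 genes (2.97 to 17.9%) and 3 genes (1.94 to 15.4%) contained the shares of all genes at this limit. No promoter share was taken by gene length.

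RefSeq promoters, taken as 250 bases before to 50 after a start in GRCm38.p6, were at hand for 46 of the 53 genes, 64 promoters in all. Peaks covered 3 of them (4.69%, against 7.64% of all RefSeq promoters touched by a peak of any list), those of Dnmt1 and Smchd1 in the Ezh2m-/p+ maternal list and that of Ring1 in both paternal lists. Their 250 upstream bases are shown because they are the annotated promoters of the set that lay under H3K27me2 peaks. All 3 are on the minus strand, and they lie at chr9:20959889-20960138, chr17:71475344-71475593 and chr17:34024681-34024930.
Dnmt1 promoter: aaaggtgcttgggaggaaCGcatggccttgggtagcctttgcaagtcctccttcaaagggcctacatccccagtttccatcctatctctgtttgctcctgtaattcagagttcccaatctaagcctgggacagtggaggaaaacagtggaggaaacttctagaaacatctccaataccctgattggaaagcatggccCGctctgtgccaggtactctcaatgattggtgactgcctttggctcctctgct
Smchd1 promoter: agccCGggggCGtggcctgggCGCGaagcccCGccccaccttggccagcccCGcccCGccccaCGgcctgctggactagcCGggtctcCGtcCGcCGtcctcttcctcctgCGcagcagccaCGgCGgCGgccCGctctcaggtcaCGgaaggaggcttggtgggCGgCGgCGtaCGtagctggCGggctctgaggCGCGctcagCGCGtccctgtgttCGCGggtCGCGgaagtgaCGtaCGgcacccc
Ring1 promoter: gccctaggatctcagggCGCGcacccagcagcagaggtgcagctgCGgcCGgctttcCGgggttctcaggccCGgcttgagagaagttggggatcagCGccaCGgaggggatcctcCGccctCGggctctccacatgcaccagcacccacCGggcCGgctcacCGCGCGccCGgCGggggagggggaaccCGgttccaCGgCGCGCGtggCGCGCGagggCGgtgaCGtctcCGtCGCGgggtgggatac
The CG dinucleotides number 2, 33 and 30. At least as many were found in 81.2%, 4.03% and 5.94% of the 32851 RefSeq promoters. The Dnmt1 promoter shown was thus poor in CG and the others shown were rich in it. The median over 300 bases was 27.5 for the promoters of the set and 7.0 for all promoters.

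**Figure D4:**
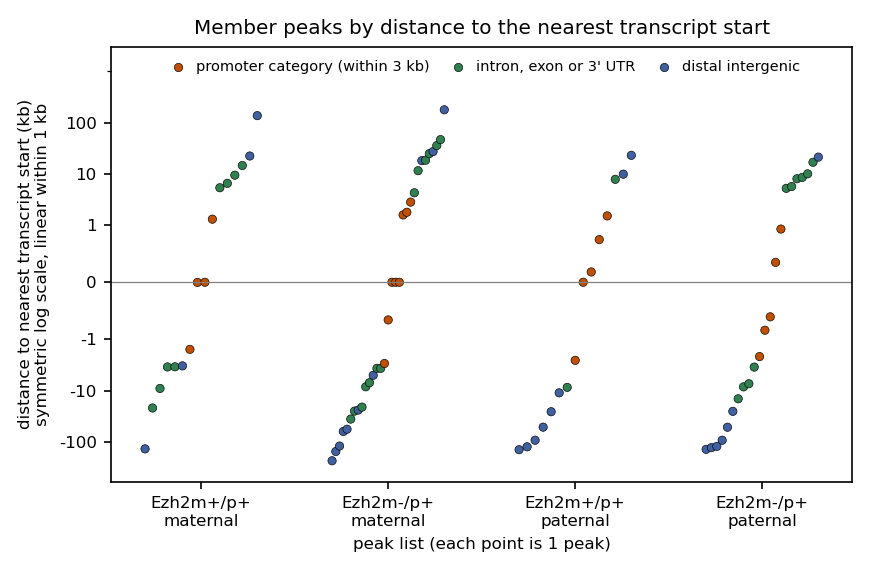
Distance of each of the 84 peaks from the nearest transcript start (vertical axis, kb, symmetric log scale that is linear within 1 kb, negative upstream) in the 4 lists, with 1 point per peak. Colours give the annotation category. Points of the promoter category lie within 3 kb of 0, and the farthest distal intergenic point is a Tet2 peak 234 kb upstream in the Ezh2m-/p+ maternal list.

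Of the 84 peaks, 44 overlapped the gene they were assigned to (52.4%, against 48.4% of the peaks assigned to any protein-coding gene) and 40 lay outside it, 3 of these in another protein-coding gene. Distal intergenic peaks made up 25.0% and 32.3% of the regulator peaks in the maternal lists, against 33.9% and 35.8% of all maternal peaks. In the paternal lists they made up 53.3% and 31.8%, against 40.2% and 40.7%. The median distance to a start was 5.99 and 18.2 kb in the maternal and 9.93 and 8.54 kb in the paternal lists, against 21.0, 20.1, 23.7 and 25.7 kb for all peaks.

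The next question was which genes had peaks in 1 genotype or in both. In the maternal genome, 6 regulator genes (11.3%) had peaks in the Ezh2m+/p+ list only, against 6.09% of all genes, and these were Cbx6, Ezh1, Kdm2b, Kdm6b, Kmt2a and Suz12. Peaks in the Ezh2m-/p+ list only were found for 9 genes (17.0%, against 12.5% of all genes), namely Aebp2, Asxl1, Dnmt1, Ehmt1, Kmt2c, Rnf2, Setd2, Smchd1 and Tet1. Both maternal lists held peaks for 6 genes (11.3%, against 8.34%), which were Asxl2, Dnmt3a, Dnmt3b, Pcgf5, Rybp and Tet2. In the paternal genome, 3 genes (5.66%, against 2.64%) had assigned peaks in the Ezh2m+/p+ list only, Pcgf1, Ring1 and Suz12, although the body of Ring1 lay under peaks given to Mir219c in both paternal lists. Asxl1, Cbx7, Kdm4a and Smchd1 (7.55%, against 6.10%) had them in the Ezh2m-/p+ list only. Cbx6, Ezh2, Jarid2, Kdm2b, Kmt2b and Pcgf5 (11.3%, against 17.4%) had them in both.

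Regulator peaks were more numerous in the Ezh2m-/p+ lists, as were all peaks. They numbered 16 and 31 in the maternal lists, a ratio of 1.94, and all maternal peaks had a ratio of 1.67. In the paternal lists they numbered 15 and 22, a ratio of 1.47 against 1.28 for all paternal peaks. Without Kdm2b the ratios were 2.21 and 1.3. The ratios moved with the limits on peaks, for the regulators and for the lists. With a fold over 10 the maternal ratio was 4.0, against 3.11 for the list, and with a length over 2000 bp it was 1.29, against 1.13. The paternal ratios were 1.55 against 1.04 and 1.33 against 1.62 under the same limits. Part of the paternal difference was thus in a single gene, and the ratios have no replicate error. The methods of the study give the Ezh2m+/p+ H3K27me2 library as the more deeply sequenced one, and the part of depth in these numbers was not tested.

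Overlap between the genotypes was low in the maternal and frequent in the paternal genome, for the regulator peaks and for the whole lists. None of the 16 Ezh2m+/p+ maternal peaks overlapped an Ezh2m-/p+ maternal peak (95% Wilson interval 0 to 19.4%), where 9.47% of the list did. None of the 31 Ezh2m-/p+ maternal peaks overlapped the other way (0 to 11.0%), against 5.78% of the list. In the paternal genome 10 of 15 Ezh2m+/p+ peaks (66.7%, 41.7 to 84.8%) and 11 of 22 Ezh2m-/p+ peaks (50%, 30.7 to 69.3%) overlapped a peak of the other genotype, against 66.1% and 45.7% of the lists. The regulator shares were close to those of their lists in the paternal genome, and the intervals of both maternal shares contained those of their lists. These intervals take peaks as independent, although Kdm2b and Jarid2 held many of the paternal peaks, so they understate the uncertainty. The 12 overlapping paternal pairs belonged to Kdm2b, Jarid2, Ezh2, Cbx6 and Pcgf5. With Kdm2b left out, 6 of 10 Ezh2m+/p+ paternal peaks overlapped. At a reciprocal overlap of 50%, 5 of 15 did (33.3%), against 31.4% of the list. For the 6 genes with peaks in both maternal lists, the closest peaks of the genotypes were between 2.4 kb (Asxl2) and 38.8 kb (Rybp) apart.

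None of the 84 peaks overlapped a peak of the other parental genome in the same genotype, and few listed peaks did. The shares of the whole lists were 0.418% and 0.416% of maternal and 0.14% and 0.18% of paternal peaks in Ezh2m+/p+ and Ezh2m-/p+ zygotes, so that 0 of 84 was near the background. In the 6 genes with peaks from both parents, Pcgf5, Cbx6, Kdm2b, Suz12, Asxl1 and Smchd1, maternal and paternal peaks lay at different positions.

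The composition of the sequences under the regulator peaks is given beside that of their lists. Median G and C content was 47.0% and 45.8% in the maternal and 48.3% and 46.9% in the paternal lists, against 45.5%, 45.6%, 44.7% and 44.0% for all peaks. The lowest content was 35.5%, in an exonic Kmt2c peak, and the highest was 61.8%, in the maternal Smchd1 peak. Median CG dinucleotides per 100 bp were 1.07, 0.913, 1.17 and 1.02, against 0.923, 0.929, 0.87 and 0.819. Soft-masked repeats took a median of 20.8%, 24.8%, 28.4% and 22.8% of the regulator peaks, against 20.3%, 19.3%, 20.9% and 21.5%. Median peak length was 2399 bp in both maternal and 1599 and 1799 bp in the paternal lists, against 2999, 2199, 1799 and 1999 bp for all peaks.

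The 28 genes with a peak in any list had a median length of 58.5 kb and the 25 without one 20.6 kb, against 17.1 kb for all protein-coding genes. By list, the medians of genes with and without a peak were 68.4 and 33.7 kb for Ezh2m+/p+ maternal, 82.9 and 24.1 kb for Ezh2m-/p+ maternal, and 61.6 and 35.3 kb for Ezh2m-/p+ paternal peaks. In the Ezh2m+/p+ paternal list they were 41.0 and 42.8 kb, so that the genes with a peak were not the longer ones there. The same medians over all protein-coding genes were 47.0 and 14.7, 42.8 and 13.8, 29.5 and 14.7, and 30.7 and 15.1 kb in the order just given. The density of a list around a gene was counted in the 1 Mb around it, over peaks assigned to other genes. Ezh2m+/p+ maternal peaks had a median of 5.0 for the 12 genes with a peak and 2.0 for the other 41. The medians were 9.0 and 3.5 for Ezh2m-/p+ maternal, 8.0 and 2.5 for Ezh2m+/p+ paternal, and 19.5 and 3.0 for Ezh2m-/p+ paternal peaks. The ranges overlapped in all lists. Ehmt2 had no peak although 32 and 44 paternal peaks lay in the 1 Mb around it, and Kmt2a had no Ezh2m-/p+ maternal peak among 39. The counts among genes of at least 20 kb were given with the shares of genes with a peak, and the part of peak density in the counts was not tested.

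**Figure D5:**
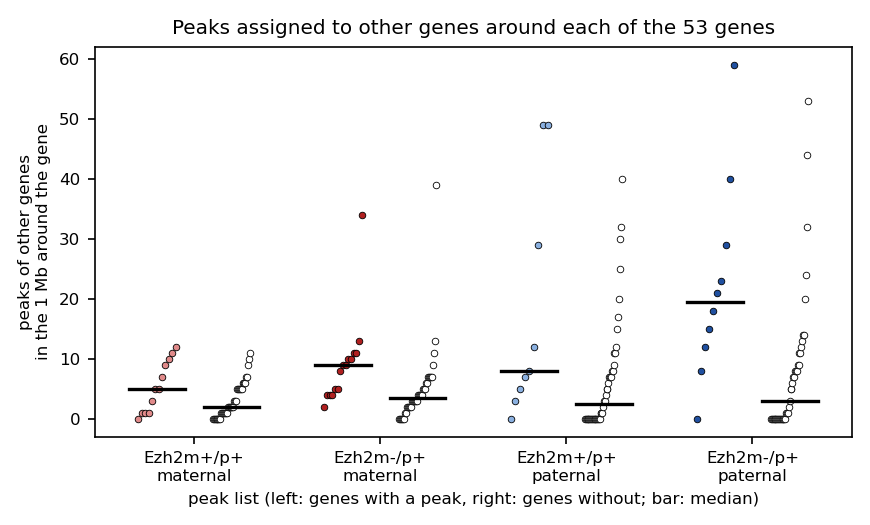
Number of peaks of each list that were assigned to other genes (vertical axis) in the 1 Mb around each of the 53 genes, for genes with an assigned peak in that list (left, filled) and without one (right, open), with bars at the medians. Medians are 5.0 and 2.0, 9.0 and 3.5, 8.0 and 2.5, and 19.5 and 3.0 from left to right, and the ranges overlap.

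Another 53 Polycomb and chromatin regulators outside the set had peaks in 7 and 19 genes of the maternal and 10 and 14 genes of the paternal lists. Their shares were 13.2%, 35.8%, 18.9% and 26.4%, against 14.4%, 20.8%, 20% and 23.5% of all protein-coding genes. The widest gap was in the Ezh2m-/p+ maternal list, 35.8% against 20.8%. In at least 1 list 29 of these genes had a peak, where 44.8% of all genes had one. Auts2 had peaks in all 4 lists, and Foxk1, E2f6 and Sfmbt1 had them in 3. The 39 Hox genes are classical targets of Polycomb repression. Of these, 0 and 4 had maternal peaks and 0 and 1 had paternal peaks in Ezh2m+/p+ and Ezh2m-/p+ zygotes. Of all genes, 14.4% and 20.8% had maternal peaks and 20% and 23.5% had paternal peaks. Neither the other regulators nor the Hox genes were given intervals or compared by gene length, and no difference was tested.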

How the data were processed

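According to the labels and the methods of the study, the authors used Trimmomatic 0.38 for trimming, Bowtie2 for alignment to mm10, SAMtools and Picard for filtering and duplicate removal, and SNPsplit to divide reads by parent. SICER then called peaks over the input, and those past a length and a fold limit were annotated with ChIPseeker. Reads without a strain variant could not be given to a parent, so a gene without a peak may lack variants, reads or H3K27me2. The deposited lists give, for each peak, its position, length and distance to a start in bp, and the fold, which is the ratio of ChIP over input that the authors' caller computed. A deposited table of the share of each chromosome covered by reads, by parental genome, was not used here because it holds no value for a gene or peak.

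Peaks were tied to genes by the gene identifier of the lists and RefSeq symbols, and all 84 peaks were anchored at transcripts with the same ends in GENCODE vM21. Peaks sharing 1 bp or more counted as overlapping, a step tested on simulated data, and shares have 95% Wilson intervals. Every gene of the set was accounted for. Peaks were given in full for Ezh1, Ezh2, Eed, Suz12, Ehmt1 and Ehmt2, for promoter categories, for overlaps between genotypes, for genes in at least 3 lists and for the largest fold of each list. Of the regulators outside the set, those in the most lists were named. The genes, their groups and the comparisons were chosen with earlier results of these data known. Python 3.11.15 was used with pandas 2.3.3, scipy 1.17.1 and pysam 0.24.0. Sequences are printed for a selection of the peaks, and the others are not reported here.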

Additional observations from a re-analysis of the deposited data

Results flagged for a closer look

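Peak numbers moved in opposite directions between the genotypes in the 2 parental genomes for Kdm2b alone among the 53 genes (1.89%), against 2.41% of all protein-coding genes, so the share was near the background. From the Ezh2m+/p+ to the Ezh2m-/p+ lists its maternal peaks fell by 2, from 2 to 0, and its paternal peaks rose by 4, from 5 to 9. The paternal numbers of Kdm2b include, in both genotypes, peaks measured to a transcript that GENCODE gives to Gm44574. The group of variant PRC1 cofactors, which contains Kdm2b, fell by 1 in the maternal lists and rose by 4 in the paternal lists. The PRC1 core and CBX group went the other way, with 4 more maternal peaks, from 2 to 6, and a paternal number that fell by 1, from 4 to 3. Over the same lists all maternal peaks rose 1.67-fold and all paternal peaks 1.28-fold, and a difference of 1 peak is the smallest that can be counted. With 1 library per genotype these differences between the parental genomes were not tested.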

How the results depend on the processing

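Of 58 alternative values, 32 stayed within 1.5 times the reported count or inside the interval of the reported share, and 26 did not. Values are given in the order Ezh2m+/p+ maternal, Ezh2m-/p+ maternal, Ezh2m+/p+ paternal and Ezh2m-/p+ paternal unless named. A fold over 10 left 5 genes and 6 peaks in the Ezh2m+/p+ maternal list. A length over 2000 bp left 9 genes and 18 peaks in the Ezh2m-/p+ maternal list, 4 and 6 in the Ezh2m+/p+ paternal list, and 5 and 8 in the Ezh2m-/p+ paternal list. Without distal intergenic peaks, 3 and 6 genes had paternal peaks, and the Ezh2m+/p+ paternal list held 7. Overlap with the gene body gave 5 genes in the Ezh2m+/p+ paternal list. Within 1000 bp of a start, 2 and 4 genes had a maternal promoter peak. The share of all genes with a peak was 7.33%, 10.6%, 10.3% and 12.1% over all 49997 genes with an identifier, and 23.1%, 31.9%, 26.6% and 31.1% over genes of at least 20 kb. Allowing a gap of 5 kb, 1 Ezh2m+/p+ maternal regulator peak, that of Asxl2, had a partner in the Ezh2m-/p+ list (6.25%, against 18.9% of the list). A reciprocal overlap of 50% left 5 shared Ezh2m+/p+ paternal peaks (33.3%, against 31.4% of the list). Leaving out Kdm2b, an alternative added after the data were examined, left 13 Ezh2m-/p+ paternal peaks and 6 shared Ezh2m+/p+ paternal peaks. The alternatives count smaller or larger sets or use other rules of overlap, and the reasons for the changes were not tested. No paired analysis was possible because each genotype had 1 H3K27me2 library. Read depth per parental genome was not used.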
